A study of Homo sapiens with 4 samples.

Results

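The genes examined were 38 genes of the aminoacyl-tRNA synthetase family, taken by name from 17656 genes measured by RNA sequencing in U937 cells. They comprised 19 enzymes that charge tRNA in the cytosol (symbols ending in 1, and the FARSA and FARSB subunits), 16 enzymes of mitochondria (symbols ending in 2) and 3 scaffold proteins (AIMP1, AIMP2 and EEF1E1). The list does not hold every synthetase of the human genome. All 38 were present in the table and all 38 passed the filter on low values, which 14582 genes passed.

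U937 is an established human cell line with monocytic features, here used as a model of acute myeloid leukemia. There were 2 groups with 2 libraries in each. The NC libraries came from U937 cells that the labels record as having no treatment. The study elsewhere describes a negative control shRNA and a nontargeting control guide RNA, and whether the NC cells carried either is not given. The libraries labelled sh-ZNF217, below called the sh-labelled libraries, came from U937 cells in which ZNF217, a zinc finger transcription factor, was knocked down according to the labels and the study's methods, whereas the study's account of its results describes a genome-edited knockout for the U937 sequencing. No source used here gives the time after perturbation, the number of clones, or whether libraries of the same group had separate cultures as their source, so p-values measure the spread between these libraries, which may be technical. ZNF217 itself was at 36.1 and 36.7 TPM (a level corrected for transcript length and for the total of the library) in the NC libraries and at 35.8 and 35.0 TPM in the sh-labelled libraries, with a log2 fold change of -0.04 (SE 0.071, adjusted p = 0.74, limma). The transcript level therefore did not separate the labels beyond the spread of the test, and protein was not measured in these libraries. In separate assays the study reports lower ZNF217 mRNA and protein after shRNA knockdown in AML cell lines, U937 among them.

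Aminoacyl-tRNA synthetases join each amino acid to its own tRNA, and the charged tRNA then carries the amino acid to the ribosome. Most amino acids are served by one nuclear gene for the cytosolic enzyme and by another for the enzyme imported into mitochondria. GARS1 and KARS1 serve both compartments, and QARS1 has no mitochondrial counterpart in the list. Several cytosolic enzymes sit together with AIMP1, AIMP2 and EEF1E1 in the multisynthetase complex. Many cytosolic synthetase genes are also known targets of ATF4, the transcription factor of the amino acid response.

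Synthetase transcripts were mostly lower in the sh-labelled libraries, by small amounts. The summed level of all 38 genes was 3335 and 3476 TPM in the NC libraries, against 3023 and 3017 TPM in the sh-labelled libraries, so the groups did not overlap and the mean differed by -11.3%. The log2 fold change was negative for 32 of the 38 genes (84.2%), against 47.5% of all genes tested, and its median was -0.17 with a range of -0.66 to 0.12, against a median of 0.02 over all genes tested. For 27 of the 38 (71.1%) both sh-labelled libraries were below both NC libraries, against 28.6% of all genes. For 1 of the 38, HARS2, both were above, against 33.5% of all genes. In bulk RNA, fewer transcripts per cell and fewer cells that carry them cannot be told apart.

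Few of these differences passed the test gene by gene. With limma on log2(TPM + 1) and Benjamini-Hochberg adjustment over all 14582 genes, TARS1, MARS2, EEF1E1, YARS1 and KARS1 had an adjusted p below 0.05, and each fell. That is 5 of 38 (13.2%), where 7.11% of all genes were lower by this rule. None of the 38 was higher, where 9.77% of all genes were, and the count of members higher at an unadjusted p below 0.05 was also 0. When a log2 fold change beyond 0.5 in either direction was required as well, EEF1E1 alone was called lower (1 of 38, 2.63%, close to the 2.46% of all genes) and 0 were called higher (against 6.26%). At an unadjusted p below 0.05, 18 of the 38 (47.4%) were lower, against 15.5% of all genes. With a plain empirical Bayes step in limma 0 of the 38 passed, with adjusted p between 0.0672 and 0.163 for the 5 genes and 9 members lower at an unadjusted p below 0.05, and with median-of-ratios scaling 10 passed. Over 13 alternative settings the adjusted p ran from 0.00496 to 0.0672 for TARS1, from 0.0132 to 0.0959 for MARS2, from 0.0157 to 0.0952 for EEF1E1, from 0.0243 to 0.148 for YARS1 and from 0.0301 to 0.167 for KARS1. The 95% interval of the log2 fold change reached neither -0.5 nor 0.5 for 24 of the 38 genes.

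**Figure D1:**
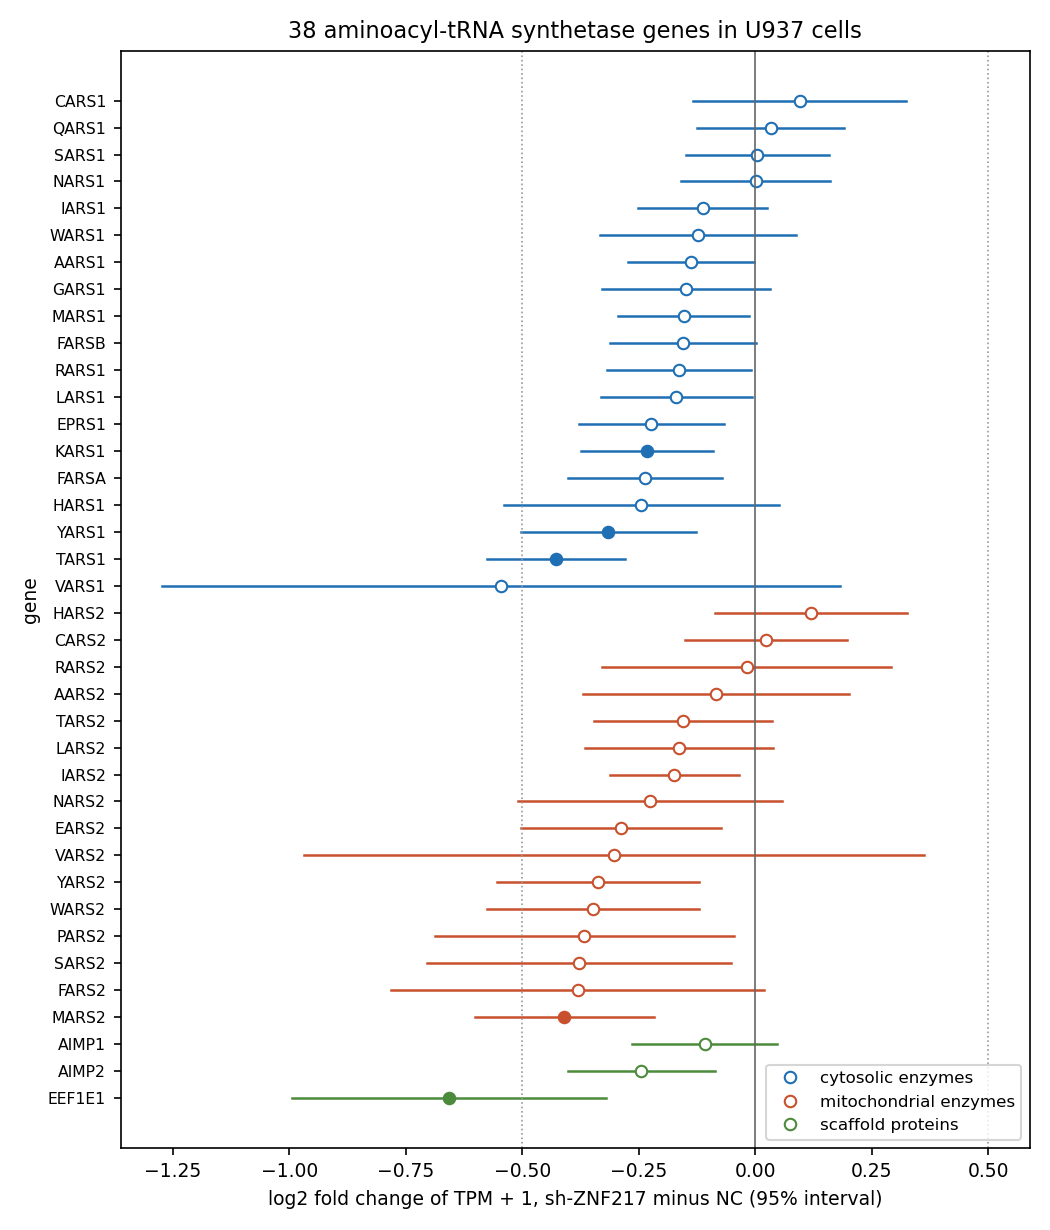
Log2 fold change of TPM + 1 (sh-labelled libraries minus NC, horizontal axis) for each of the 38 genes (vertical axis), with 95% intervals from limma, coloured by compartment. Filled points are the 5 genes with an adjusted p below 0.05 and dotted lines mark -0.5 and 0.5. The 32 negative values lie left of the solid line, and the widest intervals are those of VARS1 and VARS2.

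Among the cytosolic enzymes, 3 of 19 (15.8%) fell and 0 rose at an adjusted p below 0.05, against 7.11% lower and 9.77% higher among all genes tested. TARS1, the threonine enzyme (ENSG00000113407, hg38 chr5:33440696-33468091, plus strand), was at 105.5 and 101.4 TPM in the NC libraries and at 77.8 and 75.4 TPM in the sh-labelled libraries. The groups were well apart in relation to the gap within each, and TARS1 had the smallest p of the 38 (log2 fold change -0.43, SE 0.059, adjusted p = 0.0118). YARS1, the tyrosine enzyme and the most abundant transcript of the family (ENSG00000134684, chr1:32775237-32818031, minus strand), was at 283 and 305 TPM against 250 and 222 TPM (log2 fold change -0.32, SE 0.075, adjusted p = 0.0442). KARS1, the lysine enzyme and a member of the multisynthetase complex (ENSG00000065427, chr16:75627474-75648643, minus strand), was at 228 and 239 TPM against 193 and 204 TPM (log2 fold change -0.23, SE 0.057, adjusted p = 0.0471). YARS1 and KARS1 lay just inside the threshold. With any 1 library left out neither passed, and TARS1 passed without either NC library but not without either sh-labelled library (adjusted p = 0.0569 without replicate 1 and 0.0633 without replicate 2).

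VARS1, the valine enzyme, had the most negative log2 fold change of the cytosolic enzymes and did not pass. It was at 12.1 and 22.8 TPM in the NC libraries and at 9.87 and 12.4 TPM in the sh-labelled libraries, so the groups overlapped and 1 NC library stood above the other 3 (log2 fold change -0.55, SE 0.29, adjusted p = 0.248). Without NC replicate 1 the value was -0.98 (adjusted p = 0.0291), and without NC replicate 2 it was -0.11 (adjusted p = 0.752), so its size was set by NC replicate 2.

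The remaining cytosolic enzymes gave smaller values. EPRS1, which joins the glutamate and proline activities in one protein, was at 225 and 235 TPM against 205 and 189 TPM (log2 fold change -0.22, adjusted p = 0.0642). FARSA, the catalytic subunit for phenylalanine, was at 134 and 144 TPM against 114 and 122 TPM (log2 fold change -0.24, adjusted p = 0.0645). For RARS1, LARS1, MARS1, AARS1, FARSB, GARS1 and IARS1 the log2 fold change was between -0.17 and -0.11, with no overlap between the groups and adjusted p between 0.121 and 0.213. WARS1, the tryptophan enzyme and a known interferon-induced gene, was at 171 and 175 TPM against 147 and 172 TPM, and its groups overlapped (log2 fold change -0.12, adjusted p = 0.362).

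The 4 cytosolic enzymes with values above 0 were CARS1, QARS1, SARS1 and NARS1, for cysteine, glutamine, serine and asparagine, and all 4 overlapped between groups. CARS1 was at 26.0 and 28.6 TPM in the NC libraries and at 28.0 and 30.4 TPM in the sh-labelled libraries (log2 fold change 0.10, 95% interval -0.13 to 0.32, adjusted p = 0.516). QARS1 was at 167 and 166 TPM against 178 and 162 TPM (log2 fold change 0.03, 95% interval -0.12 to 0.19). SARS1 was at 108 and 108 TPM against 104 and 113 TPM (log2 fold change 0.0041, 95% interval -0.15 to 0.16). These intervals leave out a fall of the size seen for TARS1.

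**Figure D2:**
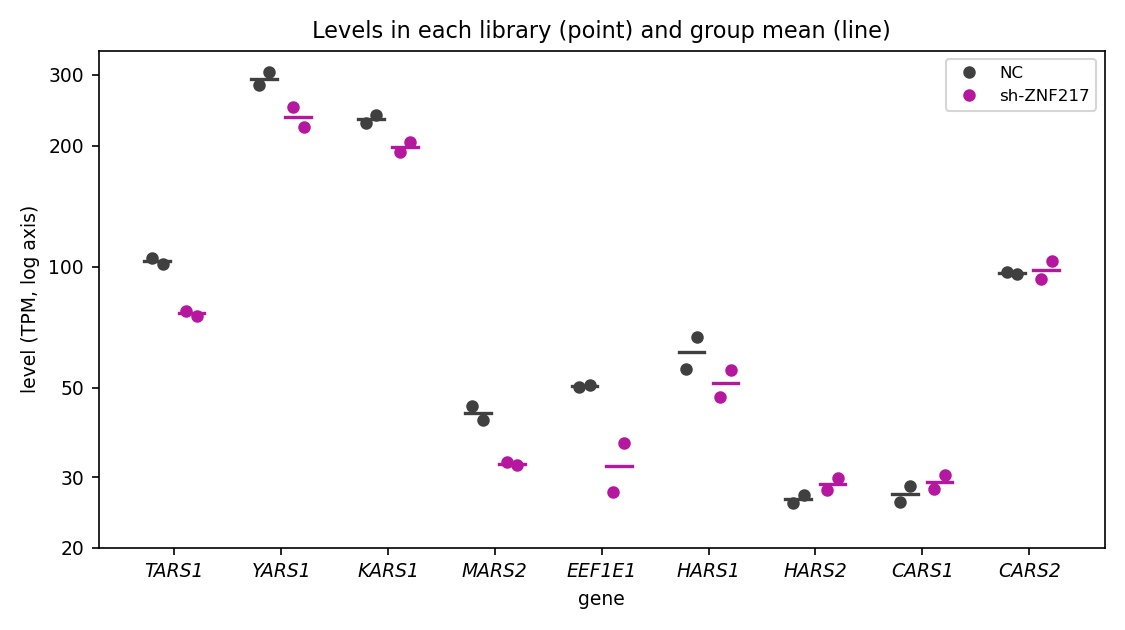
Level in TPM (vertical axis, logarithmic) of 9 synthetase genes (horizontal axis) in each of the 4 libraries, with a line at each group mean. TARS1, YARS1, KARS1, MARS2 and EEF1E1 are lower in both sh-labelled libraries than in both NC libraries, HARS1 and HARS2 differ in opposite directions, and the groups of CARS1 and CARS2 overlap.

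Promoters of the family were read for the element that ATF4 binds as a composite with C/EBP factors, TGATGNAA, on both strands of the window from 250 bases before to 50 bases after the first start listed for each gene (RefSeq, GRCh38.p14). A window was found for 33 of the 38 genes, 11 of which had more than 1 listed start. The element was in 6 of 16 cytosolic promoters (37.5%) and in 1 of 14 mitochondrial promoters (7.14%), against 3.67% of 27305 promoters. The 6 cytosolic promoters are shown because they share the letters TGATGCAA, in capitals below and read on the opposite strand as TTGCATCA, within gene-by-gene flanks that differ. A match of letters is a description and not evidence that a factor was bound.

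TARS1 (chr5:33440957-33440984, plus): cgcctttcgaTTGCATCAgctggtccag

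AARS1 (chr16:70289676-70289703, minus): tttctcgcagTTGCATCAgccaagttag

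CARS1 (chr11:3057408-3057435, minus): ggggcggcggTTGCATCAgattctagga

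IARS1 (chr9:92293693-92293720, minus): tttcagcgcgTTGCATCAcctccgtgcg

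MARS1 (chr12:57488054-57488081, plus): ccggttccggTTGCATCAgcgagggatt

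NARS1 (chr18:57621805-57621832, minus): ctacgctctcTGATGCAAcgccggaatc

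Genes with the same 8 letters had unlike values. Of these 6, only TARS1 passed. AARS1 (log2 fold change -0.14), IARS1 (-0.11) and MARS1 (-0.15) did not pass but were lower without overlap between the groups. NARS1 (0.0007) and CARS1 (0.10) did not pass and overlapped between groups. Whether the element had a part in these values was not tested. All 6 belong to the 11 cytosolic enzymes listed as known ATF4 targets. Those 11 had a median log2 fold change of -0.14, and the other 8 cytosolic enzymes had a median of -0.20. The mitochondrial promoter with a match was that of YARS2, with the letters TGATGGAA.

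ATF4 itself fell, from 360 and 383 TPM to 277 and 306 TPM (log2 fold change -0.35, SE 0.067, adjusted p = 0.026), while genes that respond to it went both ways. The list of the ATF4 response other than synthetases held 31 genes, with ATF4 itself among them, and 26 were tested. At an adjusted p below 0.05, 10 of the 26 fell (38.5%, against 7.11% of all genes), and ATF4 is counted among these 10. A further 8 rose (30.8%, against 9.77%), and the median log2 fold change of the list, ATF4 included, was -0.16. SLC7A11, the cystine transporter subunit, was at 11.4 and 12.2 TPM against 53.9 and 55.1 TPM (log2 fold change 2.12, adjusted p = 0.00068). DDIT3, a stress-induced transcription factor, was at 10.9 and 11.0 TPM against 28.8 and 34.4 TPM (log2 fold change 1.44). DDIT4, an inhibitor of mTORC1 signalling, rose with a log2 fold change of 1.31. ALDH18A1, an enzyme of proline synthesis, was at 94.8 and 103 TPM against 65.3 and 62.5 TPM (log2 fold change -0.62). DDIT3 and MARS1 lie on opposite strands and share 355 bases of exon. Whether the deposited values were counted by strand is not given in the sources used here, so reads in the shared stretch cannot be told apart.

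Among the mitochondrial enzymes, 1 of 16 (6.25%) fell, near the 7.11% of all genes tested, and 0 rose, against 9.77%. MARS2, the methionine enzyme of mitochondria (ENSG00000247626, chr2:197705369-197708395, plus strand), was at 45.1 and 41.6 TPM in the NC libraries and at 32.7 and 32.1 TPM in the sh-labelled libraries (log2 fold change -0.41, SE 0.077, adjusted p = 0.0248). Both sh-labelled libraries were below both NC libraries. MARS2 passed without NC replicate 2 (adjusted p = 0.0397), and with any other library left out the adjusted p was between 0.0912 and 0.0959. Its promoter window held both a CACGTG E-box, the letters bound by MYC and related factors, and a TGCGCA half-site of NRF1, a regulator of nuclear genes for mitochondrial proteins.

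MARS2, E-box (chr2:197705348-197705373, plus): gcgcctctcaCACGTGctgtcagaac

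MARS2, NRF1 half-site (chr2:197705331-197705356, plus): gcgacccggcTGCGCAtgcgcctctc

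CACGTG was in 3 of 14 mitochondrial promoters (21.4%; CARS2, EARS2 and MARS2) and in 1 of 16 cytosolic promoters (6.25%; IARS1), against 7.43% of all promoters. TGCGCA was in 4 of 14 mitochondrial promoters (28.6%) and in 4 of 16 cytosolic promoters (25%), against 8.42%. Both motifs read the same on either strand. The genes that hold them ranged from MARS2 to CARS2, which was at 96.9 and 95.8 TPM against 93.0 and 103 TPM (log2 fold change 0.02, 95% interval -0.15 to 0.20).

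YARS2 and WARS2, for tyrosine and tryptophan, lay just outside the threshold. YARS2 was at 27.2 and 25.3 TPM against 20.6 and 20.6 TPM (log2 fold change -0.34, adjusted p = 0.0523). WARS2 was at 25.2 and 24.6 TPM against 18.5 and 20.2 TPM (log2 fold change -0.35, adjusted p = 0.0545). FARS2, for phenylalanine, and SARS2, for serine, were next to MARS2 in the size of the difference. FARS2 was at 14.2 and 18.0 TPM against 10.9 and 13.3 TPM (log2 fold change -0.38, SE 0.16, adjusted p = 0.159). SARS2 was at 18.9 and 21.4 TPM against 13.8 and 16.9 TPM (log2 fold change -0.38, SE 0.13, adjusted p = 0.107), and a gene annotated on its strand shares 1492 bases of exon with it. None of these 4 genes overlapped between groups, and the error of FARS2 and SARS2 was larger than that of MARS2.

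PARS2, EARS2, IARS2, NARS2, LARS2 and TARS2 had log2 fold changes between -0.37 and -0.16, with no overlap between the groups and adjusted p between 0.0754 and 0.223. AARS2 (-0.08), RARS2 (-0.02) and VARS2 (-0.30) overlapped between groups. RARS2, the arginine enzyme, was at 28.9 and 35.0 TPM against 33.8 and 29.2 TPM. VARS2, the least abundant of the 38, was at 2.81 and 3.04 TPM against 1.57 and 2.93 TPM, with a 95% interval of -0.97 to 0.36, so a change was not detectable at this level. A gene annotated on the same strand shares 4073 bases of exon with VARS2, so its value is uncertain.

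HARS1 and HARS2, the cytosolic and mitochondrial histidine enzymes, are neighbours on chromosome 5, lie head to head on opposite strands and share 108 bases of exon. HARS1 (chr5:140673035-140691537, minus strand) was at 55.7 and 66.9 TPM in the NC libraries and at 47.5 and 55.5 TPM in the sh-labelled libraries (log2 fold change -0.24, SE 0.12, adjusted p = 0.208). HARS2 (chr5:140691430-140699305, plus strand) was at 25.9 and 27.0 TPM against 27.9 and 29.8 TPM (log2 fold change 0.12, SE 0.083, adjusted p = 0.364). Neither passed. HARS2 was the only gene of the 38 for which both sh-labelled libraries were above both NC libraries. The promoter windows of both genes cover the same stretch, with 2 matches to CCGGAAGT, the letters bound by ETS factors such as GABPA, shown here in capitals along the HARS2 strand.

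HARS2, upstream match, opposite strand (chr5:140691362-140691389): agcaaggatgACTTCCGGctatcgagtc

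HARS2, downstream match, same strand (chr5:140691437-140691464): ccggctcctcCCGGAAGTgccgaagctg

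CCGGAAGT was in 7 of the 33 windows (21.2%), against 4.44% of all promoters, and HARS1 and HARS2 count the same 2 matches. The 2 genes are close paralogs, and HARS1 also shares 1090 bases of exon with WDR55 on the opposite strand, so how reads were divided between them could change both values.

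The scaffold proteins held the largest fall. EEF1E1, also known as AIMP3 (ENSG00000124802, chr6:8073360-8102559, minus strand), was at 50.3 and 50.7 TPM in the NC libraries and at 27.5 and 36.5 TPM in the sh-labelled libraries. The NC libraries were nearly equal and the sh-labelled libraries lay apart from each other and below both (log2 fold change -0.66, SE 0.14, 95% interval -0.99 to -0.32, adjusted p = 0.0306). The value was -0.46 without replicate 1 of sh-ZNF217 (adjusted p = 0.0653) and -0.85 without replicate 2 (adjusted p = 0.0337), and it did not pass without either NC library (adjusted p = 0.0904 and 0.0909). A read-through gene on the same strand shares 393 bases of exon with EEF1E1. AIMP2 was at 68.7 and 67.3 TPM against 58.4 and 56.0 TPM (log2 fold change -0.24, adjusted p = 0.053). AIMP1 was at 73.9 and 72.8 TPM against 69.8 and 66.2 TPM (log2 fold change -0.11, adjusted p = 0.278).

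The 10 genes of the multisynthetase complex (7 enzymes and the 3 scaffold proteins) had a median log2 fold change of -0.17, and 9 of 10 were lower without overlap (against 28.6% of all genes), QARS1 being the exception. KARS1 and EEF1E1 fell, which is 20% of the 10 against 7.11% of all genes. The 7 enzymes inside the complex had a median of -0.16 and the 12 cytosolic enzymes outside it had a median of -0.15. By catalytic fold, the 19 class I enzymes had a median of -0.17 and the 16 class II enzymes a median of -0.19.

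Cytosolic transcripts were the more abundant, and both compartments were lower in the sh-labelled libraries by a similar share. The median level in the NC libraries was 128 TPM over the cytosolic enzymes and 27.5 TPM over the mitochondrial enzymes, a ratio of 4.65, and the ratio was 4.55 in the sh-labelled libraries. Of all 38 genes, 35 were above the median of the tested genes, 16.4 TPM. Summed levels of cytosolic enzymes were 2533 and 2669 TPM in the NC libraries, against 2329 and 2306 TPM in the sh-labelled libraries. Summed levels of mitochondrial enzymes were 609 and 617 TPM against 538 and 553 TPM. Both sums were lower without overlap, and both means differed by -10.9%. In counts, 15 of 19 cytosolic and 14 of 16 mitochondrial enzymes had a negative log2 fold change (78.9% and 87.5%, against 47.5% of all genes), and 13 and 11 were lower without overlap (68.4% and 68.8%, against 28.6%).

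The median log2 fold change was -0.16 for the cytosolic enzymes and -0.26 for the mitochondrial enzymes, a difference of 0.10. No spread of this difference of median fold changes is given. A related value, the difference between the compartments in median level on the log2(TPM + 1) scale, varied with an SD of 0.065 between libraries of a group. With a pseudocount of 5 TPM in place of 1 the difference was 0.029, and the mitochondrial genes are the less abundant. A larger change of the mitochondrial enzymes than of the cytosolic enzymes was therefore not shown.

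**Figure D3:**
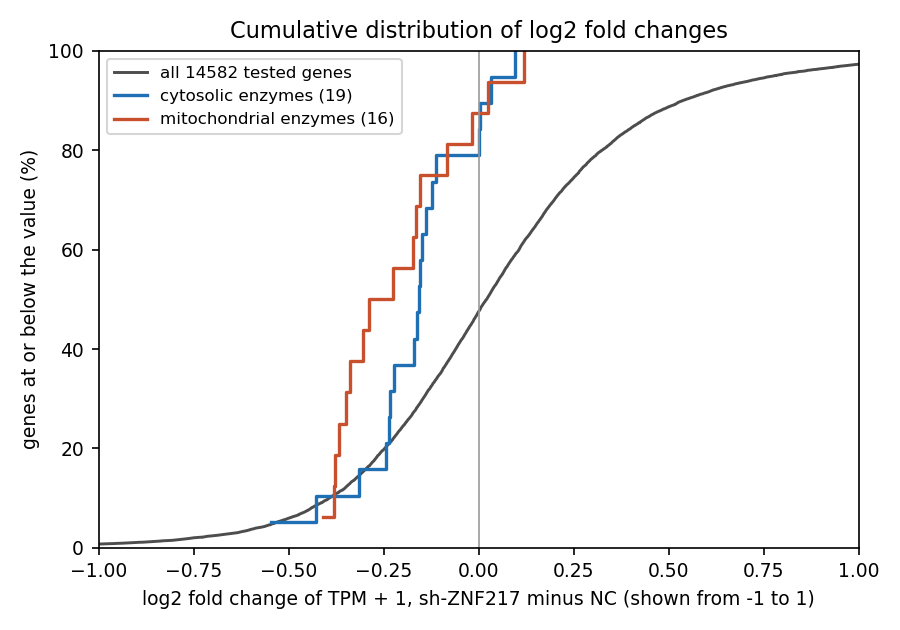
Share of genes in percent (vertical axis) at or below each log2 fold change of TPM + 1 (sh-labelled libraries minus NC, horizontal axis, shown from -1 to 1) for all 14582 tested genes, the 19 cytosolic enzymes and the 16 mitochondrial enzymes. The lines of both compartments lie to the left of the line of all genes over the middle of the plot, with medians of -0.16 and -0.26 against 0.02, and end near 0.1.

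For 17 pairs the cytosolic level was divided by the mitochondrial level within each library, a ratio that does not depend on the scaling of the library. EPRS1 enters 2 of these pairs and FARS2 enters 2, so the pairs are not independent. The mean ratio in the NC libraries ran from 0.283 for CARS1 over CARS2 to 21.3 for EPRS1 over PARS2, with a median of 4.27. The cytosolic transcript was the more abundant in all 4 libraries for 16 of the 17 pairs. The exception was cysteine, where CARS2 exceeded CARS1 in every library. IARS1 and IARS2, for isoleucine, were nearly equal, with ratios of 1.02 and 1.03 in the NC libraries and 1.07 and 1.07 in the sh-labelled libraries.

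The ratio overlapped between groups for 9 of the 17 pairs, was higher without overlap for 6 and was lower without overlap for 2, and the median change was 0.07 on the log2 scale. The largest changes were for serine and histidine. SARS1 over SARS2 was 5.72 and 5.04 in the NC libraries and 7.55 and 6.68 in the sh-labelled libraries (log2 change 0.40). HARS1 over HARS2 was 2.15 and 2.48 against 1.70 and 1.87 (log2 change -0.37).

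Threonine and methionine, whose pairs hold the 2 enzymes with the smallest p, went in opposite directions. TARS1 over TARS2 was 2.02 and 2.12 in the NC libraries and 1.78 and 1.65 in the sh-labelled libraries (log2 change -0.27). MARS1 over MARS2 was 2.78 and 3.14 against 3.58 and 3.52 (log2 change 0.27). With 2 libraries in each group no exact test of a single ratio can reach 0.05, and no p is given for these ratios. The 2 subunits of the cytosolic phenylalanine enzyme, FARSA and FARSB, stood at ratios of 1.99 and 2.13 in the NC libraries and 1.84 and 2.06 in the sh-labelled libraries, which overlap.

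**Figure D4:**
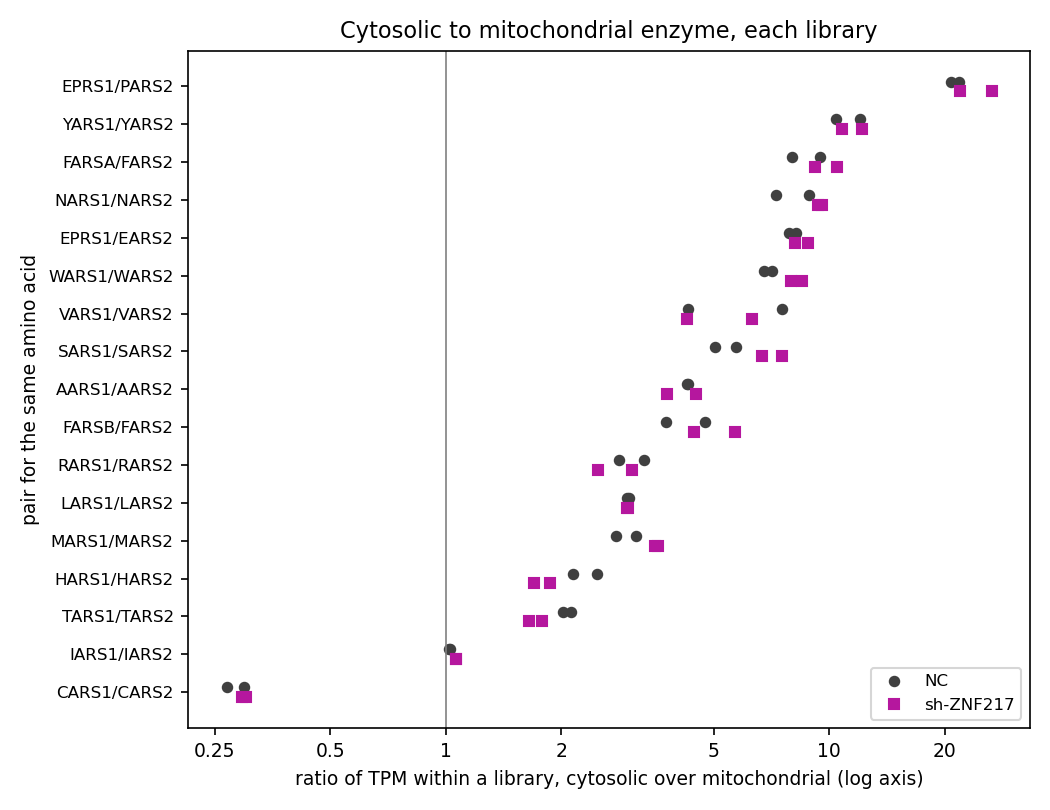
Ratio of cytosolic to mitochondrial TPM within each library (horizontal axis, logarithmic) for 17 pairs that serve the same amino acid (vertical axis), with 2 NC libraries as circles and 2 sh-labelled libraries as squares. Of the 17 pairs, 16 lie right of 1 in every library, and the squares lie to the right of both circles for 6 pairs and to the left for 2.

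Genes that act on tRNA around the charging step had a similar median. Of 65 tested genes for tRNA modification, processing and export, 57 (87.7%, against 47.5% of all genes) had a negative log2 fold change, 9 fell (13.8%, against 7.11%) and 0 rose (against 9.77%) at an adjusted p below 0.05, and the median was -0.16. WDR4, the partner of the tRNA methyltransferase METTL1, was called lower, from 40.3 and 37.7 TPM to 24.5 and 26.7 TPM (log2 fold change -0.59, SE 0.085, adjusted p = 0.0129). METTL1 itself, chosen for mention after its value was seen, also fell (log2 fold change -0.49, adjusted p = 0.0394). XPOT, the export receptor of tRNA, stands in both this list and the ATF4 response list.

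Of 8 tested genes for delivery and proofreading of charged tRNA in the cytosol, 7 (87.5%) had a negative log2 fold change and were lower without overlap (against 47.5% and 28.6% of all genes). The remaining gene was higher without overlap (12.5%, against 33.5%). The median was -0.24, but the summed level overlapped between groups, at 9202 and 9388 TPM against 9811 and 9256 TPM. At an adjusted p below 0.05, 2 fell (25%, against 7.11%) and 0 rose (against 9.77%). Those that fell, named after their values were seen, were DTD1, which removes D-amino acids from tRNA (log2 fold change -0.50, adjusted p = 0.0106), and EEF1B2, an exchange factor of the elongation factor (log2 fold change -0.41). Of 11 tested interferon gamma response genes, 1 rose (9.09%, against 9.77% of all genes) and 0 fell (against 7.11%), with a median of 0.23, while WARS1, which is known to be induced by interferon gamma, did not pass.

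Several features of the libraries moved with the groups. The 37 mitochondrially encoded genes held 9.98% and 10.8% of TPM in the NC libraries and 12.5% and 12.7% in the sh-labelled libraries. With those genes removed and the rest rescaled, 31 of the 38 genes were still negative, and 3 passed (TARS1, MARS2 and EEF1E1). Of 9 tested myeloid markers, 6 were higher (66.7%, against 9.77% of all genes) and 0 lower (against 7.11%) at an adjusted p below 0.05. CEBPA did not pass and was lower without overlap, at 297 and 256 TPM against 237 and 243 TPM, and CD33 overlapped between groups. The summed level of the 10 measured was 4925 and 4872 TPM against 7433 and 7371 TPM. Most of that sum was LYZ, with means of 3263 and 5419 TPM, and MPO was at or under 0.513 TPM in every library. Measured markers of other cell types were 3 of 8 for T and NK cells (summed 94.2 to 117 TPM in the NC libraries and 139 to 142 TPM in the sh-labelled libraries), 3 of 5 for B cells (5.51 to 10.7 TPM and 4.45 to 7.06 TPM), 0 of 6 for erythroid cells and megakaryocytes, and 1 of 6 for epithelial cells and fibroblasts (0.777 to 1.21 TPM and 1.1 to 1.4 TPM). The part of the marker differences in the synthetase results was not tested. TPM values carry no read depth, so no counting error can be given for any level.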

How the data were processed

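Per the labels, RNA was extracted from U937 cells with Trizol and libraries were prepared with a TruSeq RNA kit. Reads were filtered and aligned with HISAT2 2.0.5 to hg38, according to the submitters' processing notes and the study's methods. The deposited values are TPM per Ensembl gene for 4 libraries, which sum to 998932 to 999282 per library. For the quantifier, the annotation release and the use of strand, the answer is not given in the sources used here, and the depth is unknown. The name of each column holds NC or ZNF with a replicate number, which gave its sample, and further parts that are not explained.

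From these values, log2(TPM + 1) was computed, genes reaching 1 TPM in 2 or more of the libraries were kept (14582, with 3074 left out), and limma 3.58.1 (R 4.3.3) compared the groups with a trended, robust empirical Bayes step and Benjamini-Hochberg adjustment over all genes kept. A gene passed at an adjusted p below 0.05 and was called when its log2 fold change also exceeded 0.5 in size. Fold changes on this scale understate the change of low genes. Symbols, positions and exon overlaps came from GENCODE 44, which named 16143 of 17656 identifiers (91.4%). Promoter windows came from RefSeq (GRCh38.p14). The procedure was also run on simulated data, with planted changes larger than those of most members, so that run gives no measure of detection for changes of their size.

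The members and gene lists were chosen with earlier results of these data known. Values in every library were given for members with an adjusted p below 0.05, for the 3 cytosolic and 3 mitochondrial enzymes with the largest fold change in each direction, and for other members where they neighbour these. In other lists, up to 4 called genes with the smallest p were named, and ATF4, METTL1, DTD1 and EEF1B2 were named outside this rule after their values were seen. A list of mitochondrial translation factors is not reported here. The alternatives tried were other pseudocounts, filters, scalings, gene sets, empirical Bayes settings, the replicate number as a block, and leaving out each library.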

Additional observations from a re-analysis of the deposited data

How the results depend on the processing

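TPM values hold no read depth, so the precision of each level rests on 2 libraries per group. The number of members with an adjusted p below 0.05 and a lower level, 5 with limma as reported, was 3 without a filter on low values, 8 with a filter of 5 TPM (which VARS2 failed), 10 with median-of-ratios scaling, 3 without mitochondrially encoded genes, 10 with protein-coding genes alone, 0 with plain empirical Bayes in limma (9 members lower at an unadjusted p below 0.05) and 3 with the replicate block (TARS1, MARS2 and EEF1E1). With 1 library left out it was 0 to 2, with 0 without sh-ZNF217 replicate 1 (10 members at an unadjusted p below 0.05), and the number called lower was 0 to 1. Plain empirical Bayes called 0 lower. The count of negative members ranged from 31 to 35 over the 13 alternatives. The replicate numbers gave no pairing, since the deviations of same-numbered libraries correlated at -0.0053, so the block shows a shared number only. The median log2 fold change of the cytosolic enzymes was -0.12 without mitochondrially encoded genes and -0.19 to -0.11 with 1 library left out. That of the mitochondrial enzymes was -0.18 with a pseudocount of 5 TPM, where the difference between compartments was 0.029. Members near 0 changed sign. Median-of-ratios scaling gave -0.026 for NARS1, -0.022 for SARS1 and -0.0024 for CARS2, and leaving out mitochondrially encoded genes gave 0.016 for RARS2. With 1 library left out the ranges were -0.054 to 0.056 for NARS1, -0.034 to 0.10 for QARS1, -0.049 to 0.058 for SARS1, -0.23 to 0.058 for AARS2, -0.0497 to 0.097 for CARS2, -0.15 to 0.11 for RARS2 and -0.61 to 0.0014 for VARS2. The cause of these differences was not tested.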
